A study of Bactrocera oleae with 8 samples.

Results

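The members described here are 29 contigs of the olive fruit fly Bactrocera oleae to which the designers of a custom array gave repeated probes, as genes of general cell function. They were chosen by a property of the array alone: each is a contig name with a probe spotted 15 times on every array, and 29 of the 20516 contig names met this rule. Each member had 4 such repeated probes, so 116 probes filled 1740 of the 61600 spots (2.82%), scattered over 379 of 384 rows and 164 of 164 columns. The study's methods describe a 3' bias in the design of its repeated probes, but give other numbers of reading frames and of copies. Where the probes lie was not tested. In 28 members the contig also carried 3 or 4 probes spotted once. RNA of whole second-instar larvae was compared between 3 feeding regimes on 8 two-colour arrays, each channel holding 1 pool of 20 larvae. On each of the 8 arrays the Cy5 dye marked larvae fed on green olives (GO), and the Cy3 dye marked larvae fed on black olives (BO) on 4 arrays or on artificial diet (AD) on the other 4. The GO and BO larvae were dissected out of field-infested fruit of the same orchard in different seasons, whereas the AD larvae hatched in the laboratory from eggs of flies reared from such fruit, so that season and rearing vary with the regime and cannot be told apart from it. The dyes were not swapped, so a dye difference cannot be told apart from the regime in either comparison that involves GO. BO and AD shared a dye but never an array, and their difference was taken through the GO channel that both had. The 2 comparisons with GO share no array, but the methods describe 4 GO pools, and the GO channels of the sets resembled each other in pairs. Over 13909 contigs above background, the deviations of a GO channel from its set's mean correlated at 0.72 to 0.90 with those of 1 GO channel of the other set, a different one for each of the 4, and at -0.60 to -0.11 with the other 3 (a description across contigs, which are not replicates). The labels do not say which channels share a pool, so all 8 were fitted as independent, and counts over 8 GO channels should not be read as counts of 8 pools.

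Genes of this kind serve functions that nearly every cell needs. Ribosomal proteins build the particle that makes protein, actin and tubulin form the filaments that give a cell its shape and move its cargo, and genes of both kinds are often used as references against which other transcripts are measured. Heat shock proteins are chaperones that keep other proteins from misfolding, and the small ones of flies are known for transcript levels that climb steeply in stress.

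Sequences of 5 members show the transcripts that their contigs stand for. They are stretches of the longest open frame found in the sequences at hand from the designers' list, for contigs of the fly transcriptome on which the array was built. They are not probe sequences, and no genome position was looked up here. The first 3 belong to the pair of members with the most extreme ratios and to the 1 member whose signal was near background, and are shown up to the end of the frame, with the stop codon in capitals. For these 3 only the first 399 bases of the contig were at hand, and the frame is on their reverse complement.
heat shock protein 23, contig04923: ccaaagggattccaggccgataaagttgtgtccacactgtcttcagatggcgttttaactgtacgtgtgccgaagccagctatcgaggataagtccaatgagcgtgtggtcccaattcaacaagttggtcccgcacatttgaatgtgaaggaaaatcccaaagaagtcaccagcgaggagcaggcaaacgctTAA
alcohol dehydrogenase 2, contig03652: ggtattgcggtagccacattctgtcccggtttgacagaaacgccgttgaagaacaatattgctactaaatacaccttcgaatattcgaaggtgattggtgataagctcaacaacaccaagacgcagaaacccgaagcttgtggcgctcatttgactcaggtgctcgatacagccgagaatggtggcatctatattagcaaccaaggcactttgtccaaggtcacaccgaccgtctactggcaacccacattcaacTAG
glyceraldehyde 3-phosphate dehydrogenase 2, contig01448: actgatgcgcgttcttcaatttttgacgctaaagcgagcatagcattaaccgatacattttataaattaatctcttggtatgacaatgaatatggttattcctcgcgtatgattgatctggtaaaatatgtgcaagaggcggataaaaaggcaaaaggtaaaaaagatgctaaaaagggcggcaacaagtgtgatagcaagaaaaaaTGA
The other 2 are both named ribosomal protein L13a. The first is shown from the first ATG of its frame (capitals) over 300 bases and the second up to its stop codon (capitals), and the longest run that the listed sequences of these 2 contigs share, on either strand, is 8 bases.
ribosomal protein L13a, contig09856: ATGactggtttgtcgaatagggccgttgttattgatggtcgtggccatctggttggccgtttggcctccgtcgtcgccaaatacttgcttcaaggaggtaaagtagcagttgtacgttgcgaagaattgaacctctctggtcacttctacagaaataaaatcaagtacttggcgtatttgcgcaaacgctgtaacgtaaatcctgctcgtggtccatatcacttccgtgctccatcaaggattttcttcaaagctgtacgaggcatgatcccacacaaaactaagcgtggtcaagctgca
ribosomal protein L13a, contig11288: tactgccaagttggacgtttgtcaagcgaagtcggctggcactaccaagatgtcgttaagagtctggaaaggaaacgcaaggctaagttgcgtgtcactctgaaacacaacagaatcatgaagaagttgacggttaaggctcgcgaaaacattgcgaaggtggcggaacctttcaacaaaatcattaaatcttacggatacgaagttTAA

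Signals are given as log2 intensity after normalization, and ratios as log2 of GO over the other channel of the same array, so that a positive value is higher in GO. Averaged over the arrays, the members' levels lay between 6.63 and 17.52, with a median of 14.33. The median over all contigs was 7.57, and the values for all contigs given below were not matched for level or for the number of spots averaged. A contig was counted as well above background in a channel where at least 1 of its probes was. Of the 29 members, 28 were so in all 16 channels, as were 11903 of the 20516 contigs. The exception was glyceraldehyde 3-phosphate dehydrogenase 2. No spot of a member was saturated. The p-values below measure the spread between these arrays only. Levels are not compared between genes, since each probe has its own brightness, and in RNA of whole larvae fewer cells of a type and less RNA per cell cannot be told apart.

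Most members differed little between the regimes, and a few differed a great deal. In GO against AD, 4 of the 29 members (13.8%) had an adjusted p under 0.05, 3 higher and 1 lower in GO, beside 11.0% of all contigs (5.66% higher, 5.39% lower). In BO against AD it was 1 member (3.45%), higher in BO, beside 4.52% of all contigs (1.85% higher, 2.67% lower). In GO against BO, 10 members (34.5%) passed, 5 higher and 5 lower in GO, beside 23.0% of all contigs (12.1% higher, 10.8% lower). All p-values are from limma, adjusted by Benjamini-Hochberg over all 20516 contigs. When a log2 fold change beyond 1 in either direction was also asked for, 1 member remained in GO against BO (3.45%, beside 2.25% of all contigs), and none in GO against AD or in BO against AD, where 1.05% and 0.936% of all contigs did. At an unadjusted p under 0.05 by limma, 11 members passed in GO against AD (37.9%, beside 5752 of all 20516 contigs, or 28%), 7 in BO against AD (24.1%, beside 23.3%) and 16 in GO against BO (55.2%, beside 35.8%), of which 2, 0 and 2 were beyond that size.

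The median log2 fold change of the members was 0.07 in GO against AD, 0.04 in BO against AD and -0.07 in GO against BO, beside 0.01, 0.01 and -0.00 over all contigs. The median absolute log2 fold change of the members was 0.152 in each of the 3 comparisons, beside 0.106 in GO against AD, 0.137 in BO against AD and 0.130 in GO against BO over all contigs. Within 0.25 of 0 on the log2 scale lay 20 members in GO against AD (69.0%, beside 79.5% of all contigs), 22 in BO against AD (75.9%, beside 70.4%) and 18 in GO against BO (62.1%, beside 70.9%). The counts changed when single arrays were left out: 2 members passed in GO against AD without AD array 2, 3 or 4, and in GO against BO 6 passed without BO array 2 and 5 without BO array 3. No member passed in BO against AD without AD array 3. The shares of all contigs without these arrays are not given, so whether such a drop is particular to the members was not tested.

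**Figure D1:**
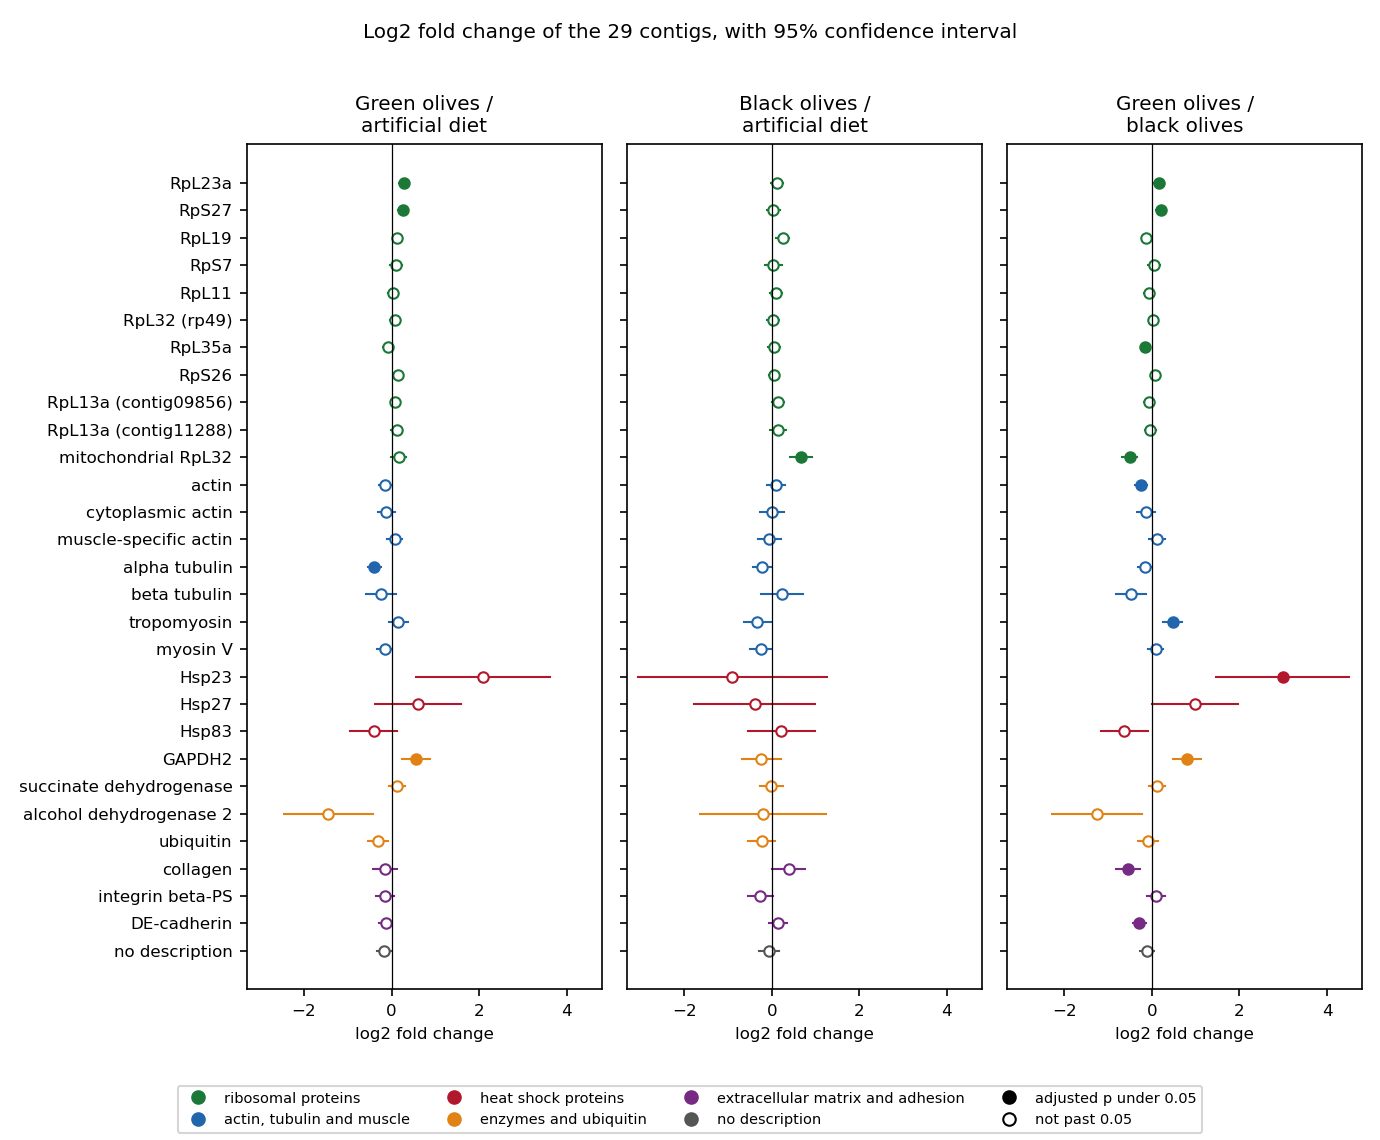
Log2 fold change of each of the 29 members (points) with its 95% confidence interval (lines) in GO against AD, BO against AD and GO against BO, coloured by role; filled points have an adjusted p under 0.05 over all contigs. Most points lie near 0, heat shock protein 23 reaches 2.99 in GO against BO, and alcohol dehydrogenase 2 lies at -1.44 in GO against AD and -1.24 in GO against BO.

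Of the 11 ribosomal proteins, 10 belong by name to the cytosolic ribosome. Among all 11, 2 rose and none fell in GO against AD, 1 rose in BO against AD, and 2 rose and 2 fell in GO against BO, with medians of 0.12, 0.09 and -0.03. Of all contigs, 5.66% rose and 5.39% fell in GO against AD, 1.85% rose in BO against AD, and 12.1% rose and 10.8% fell in GO against BO. Both the calls of the ribosomal proteins and their small medians turned with the scaling. In GO against AD, 9 rose with median centring in place of the intensity-dependent loess step and none passed on the scanner's processed signals. In GO against BO, 5 rose and 1 fell with median centring, 1 fell on the processed signals, and 1 rose and 4 fell in the deposited value table. The shares of all contigs under these scalings are not given, so whether these shifts are particular to ribosomal proteins was not tested. As to the medians, on the scanner's processed signals, centred on the median, they were -0.03, -0.06 and -0.02, and with median centring they were 0.46, 0.23 and 0.23; with the arrays centred on the members, the third alone changed sign, to 0.02. RpL23a, a protein of the large subunit, gave log2 ratios of 0.35, 0.21, 0.29 and 0.25 on the 4 AD arrays and 0.11, 0.19, 0.21 and 0.11 on the 4 BO arrays. It was thus higher in GO on every array, by 0.28 ± 0.043 (SE, n = 4 arrays, adjusted p = 0.00956, limma) against AD and by 0.15 ± 0.043 against BO (n = 4, adjusted p = 0.0354, limma). RpL23a lost the call against AD in 2 of 26 alternatives, among them the scanner's processed signals (0.06, adjusted p = 0.666, limma). It lost that against BO in 16 of 26 alternatives, among them each that left out AD array 3 or 4 or a single BO array (adjusted p between 0.0548 and 0.119, limma).

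RpL35a, also of the large subunit, was lower in GO than in BO on each BO array, with log2 ratios of -0.13, -0.09, -0.19 and -0.20 and a log2 fold change of -0.15 ± 0.041 (n = 4, adjusted p = 0.0320, limma). With median centring this difference changed sign, to 0.07, and in 14 of the other 25 alternatives it lost the call, among them each that left out AD array 4 or a single BO array (adjusted p between 0.0527 and 0.106). RpS27, of the small subunit, passed in both comparisons with GO, at 0.25 ± 0.045 against AD (n = 4, adjusted p = 0.0151, limma) and 0.21 ± 0.045 against BO (n = 4, adjusted p = 0.0125, limma), and was higher in GO on all 8 arrays. Its probes did not share this difference. The 4 repeated probes of RpS27 averaged -0.01 in GO against AD and -0.04 in GO against BO, at a level of 16.78, whereas its 3 single-spot probes averaged 0.61 and 0.54 at a level of 12.82. With the repeated probes alone, RpS27 was past the threshold in neither comparison (adjusted p = 0.892 against AD and 0.634 against BO, limma). The calls of the full average were also lost without AD array 2, 3 or 4 against AD (adjusted p up to 0.0628) and without BO array 2 against BO (adjusted p = 0.0505). Of 26 alternatives in each comparison, 6 lost the call against AD and 4 that against BO with the sign kept. The sign changed in 1 and 2 further ones.

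Members average more spots than contigs without repeated probes, which limits a comparison of their spread with that of all contigs. RpS26 had the smallest spread over arrays of all 20512 contigs with a value on every array. Its log2 ratios were 0.12, 0.16, 0.15 and 0.12 on the AD arrays and 0.06, 0.09, 0.10 and 0.08 on the BO arrays, a pooled SD of 0.0180. With a log2 fold change of 0.14 ± 0.037 in GO against AD it nonetheless missed the threshold (n = 4, adjusted p = 0.0527, limma), and in GO against BO it stood at 0.08 (adjusted p = 0.149). RpL32, known as rp49 and long used as a reference in flies, ranged between 0.05 and 0.09 on the AD arrays and between -0.04 and 0.11 on the BO arrays. Its 95% intervals were -0.03 to 0.16 in GO against AD, -0.10 to 0.17 in BO against AD and -0.06 to 0.13 in GO against BO.

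RpL19 had log2 intensities of 17.03, 16.98, 16.88 and 17.02 in the BO pools and 16.79, 16.70, 16.66 and 16.79 in the AD pools. The BO pools were thus all above the AD pools, but the log2 fold change of 0.25 in BO against AD missed the threshold (adjusted p = 0.0644, limma). RpS7 (0.10 against AD, 0.06 against BO) and RpL11 (0.02 and -0.07) also missed it. The pair named RpL13a, of the large subunit, gave nearly the same values from sequences with no long run in common: contig09856 and contig11288 stood at 0.08 and 0.12 in GO against AD, at 0.15 and 0.15 in BO against AD, and at -0.07 and -0.03 in GO against BO, none past the threshold. Ribosomal proteins of other names lay as close, such as RpS7 in GO against AD and RpL11 in GO against BO. The likeness of the pair is thus no check of what their probes read.

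**Figure D2:**
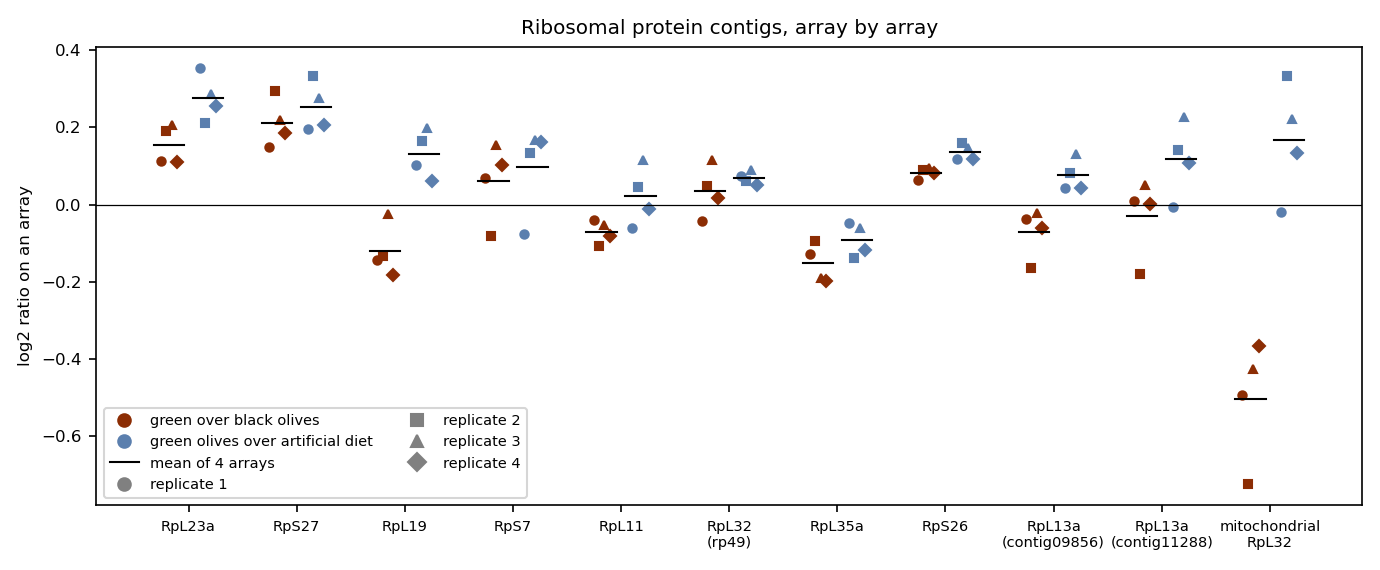
Log2 ratio of GO over BO (brown, left of each pair) and of GO over AD (blue) on each array for the 11 ribosomal protein contigs, with the mean of 4 arrays as a bar and the replicate number as the symbol. The 10 cytosolic proteins reach at most 0.35 on any array, and the mitochondrial L32 lies between -0.72 and -0.37 on the BO arrays.

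The eleventh, mitochondrial ribosomal protein L32, belongs by name to the separate ribosome of the mitochondrion and stood apart from the rest. Its log2 intensities were 11.80, 11.95, 11.85 and 11.82 in the BO pools, against 11.16, 11.03, 11.03 and 11.29 in the AD pools. The ranges did not overlap, and the log2 fold change of BO over AD was 0.67 ± 0.106 (SE, n = 4 arrays a side, adjusted p = 0.0168, limma), the only member to pass in that comparison. On the 4 BO arrays the log2 ratios of GO over BO were -0.49, -0.72, -0.42 and -0.37, all below 0, and the log2 fold change was -0.50 ± 0.075 (n = 4, adjusted p = 0.00301, limma). In GO against AD it stood at 0.17 ± 0.075 (n = 4, adjusted p = 0.189, limma), higher in GO on 3 of 4 arrays. The call in BO against AD was lost in 5 of 25 alternatives (adjusted p up to 0.131, limma). Among them were the fit without AD array 3 (adjusted p = 0.0628), the scanner's processed signals and median centring. The call in GO against BO held in all 25 alternatives run for it.

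The repeated probes are all that the array had under the plain name of this contig, but 3 other names on it refer to segments of the same contig. The segment of bases 648 to 1256, read in reverse, gave 0.67 in BO against AD (adjusted p = 0.0151, limma) and -0.49 in GO against BO (adjusted p = 0.00287). The segment of bases 2 to 508 gave 0.86 (adjusted p = 0.0195) and -0.63 (adjusted p = 0.00376). Both thus moved the same way as the member, and the short segment of bases 509 to 647, at a dim level of 6.24, gave 0.04 and -0.01. By the study's methods, contigs with protein matches on both strands were split into reading frames of each strand and non-coding regions. These segments may thus stand for different genes, and their values are no further measure of the member. Which segment the repeated probes lie in was not tested, and the name of the member rests on the designers' list.

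Of the 7 members for actin, tubulin and muscle proteins, 1 fell in GO against AD, none passed in BO against AD, and 1 rose and 1 fell in GO against BO. Of all contigs, 5.39% fell in GO against AD, 4.52% passed in BO against AD, and 12.1% rose and 10.8% fell in GO against BO. Alpha tubulin, a subunit of microtubules, had log2 ratios of -0.40, -0.51, -0.35 and -0.32 on the AD arrays, and -0.22, 0.02, -0.33 and -0.13 on the BO arrays. It was lower in GO than in AD on each AD array, by a log2 fold change of -0.39 ± 0.063 (n = 4, adjusted p = 0.0101, limma), the same to 2 decimals in its 4 single-spot probes as in the average of all 8 probes, and 3 of the 4 BO arrays were below 0 (-0.16, adjusted p = 0.0985). Its signal, at a mean of 7.52 by the repeated probes, was well above background in all 16 channels. Beta tubulin, the other microtubule subunit, was at -0.26, -1.07, -0.15 and -0.45 on the BO arrays. It was lower in GO throughout, with array 2 well apart, and just missed the threshold at -0.48 ± 0.149 (n = 4, adjusted p = 0.0511, limma).

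Tropomyosin, which lies along the actin filament and in muscle governs its contraction, was higher in GO than in BO on each BO array. Its log2 ratios there were 0.20, 0.80, 0.56 and 0.36, against 0.24, -0.05, 0.15 and 0.26 on the AD arrays. The log2 fold change was 0.48 ± 0.096 in GO against BO (n = 4, adjusted p = 0.00986, limma) and 0.15 in GO against AD (adjusted p = 0.358). The call was lost in 2 of 26 alternatives, with the 4 BO arrays fitted alone (adjusted p = 0.0543) and with a replicate block (adjusted p = 0.0644). The muscle-specific actin did not share this difference in the average of its probes, at 0.12 ± 0.078 in GO against BO (n = 4, adjusted p = 0.328, limma). Its probes were split: the 4 repeated ones stood at 0.30 and a level of 14.10, and the 4 single-spot ones at -0.07 and a level of 6.27, well above background in 0 of 16 channels.

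The contig named actin without further detail fell in GO against BO, with log2 ratios of -0.10, -0.27, -0.44 and -0.19 and a log2 fold change of -0.25 ± 0.060 (n = 4, adjusted p = 0.0198, limma). It lost the call in 9 of 26 alternatives (adjusted p up to 0.177, limma). Among them were the fits without BO array 2 (adjusted p = 0.0641) or BO array 3 (adjusted p = 0.0683), and its single-spot probes alone (-0.14). The call was also lost on the scanner's processed signals, with median centring and with the arrays centred on the members. Cytoplasmic actin, the form of the cell's own skeleton, stood at -0.13 in GO against BO (adjusted p = 0.338), with 0.02 from its repeated probes and -0.27 from its single-spot probes. Myosin V, a motor that carries cargo along actin, passed in no comparison, at -0.16 in GO against AD, -0.25 in BO against AD and 0.09 in GO against BO. Actins are near copies of each other, and whether a probe of one also bound RNA of another was not tested.

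The 3 heat shock proteins varied more between arrays than any other member except alcohol dehydrogenase 2. Hsp23, a small heat shock protein, had log2 intensities between 14.61 and 15.87 in the 8 GO channels, with a median of 15.32. In the BO pools they were 14.13, 10.80, 10.86 and 13.45, and in the AD pools 14.07, 14.17, 12.05 and 12.43. Every GO channel was thus above every BO and AD pool. BO and AD overlapped, with BO between 10.80 and 14.13 and AD between 12.05 and 14.17. On the arrays the log2 ratio of GO over BO was 1.05, 5.05, 3.84 and 2.01, and that of GO over AD 1.80, 0.43, 3.06 and 3.05.

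In GO against BO the log2 fold change of Hsp23 was 2.99 ± 0.663, or 7.93-fold (SE, n = 4, adjusted p = 0.0146, limma), which made it the 1 member past both limits. In GO against AD it was 2.09 ± 0.663 (4.25-fold), higher in GO on 4 of 4 arrays but past the threshold no longer (adjusted p = 0.0809, limma). In BO against AD it was -0.90 ± 0.938 (adjusted p = 0.616, limma), with a 95% interval of -3.06 to 1.25, so a difference of several-fold either way was not detectable. The 4 repeated probes gave between 3.01 and 3.03 in GO against BO and the 3 single-spot probes between 2.82 and 3.11, so the probes of Hsp23 were close to each other while the pools were not. Without BO array 3 the adjusted p in GO against BO was 0.0618, and without BO array 2 that in GO against AD was 0.0469.

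Hsp27, a second small heat shock protein, was low in the same pools. Its log2 intensities lay between 12.49 and 13.42 in the 8 GO channels, and were 13.08, 11.38, 11.35 and 12.53 in the BO pools and 13.25, 13.24, 11.47 and 11.90 in the AD pools. BO pools 2 and 3 and AD pools 3 and 4 were the lowest of their regimes for both Hsp23 and Hsp27, whereas the other BO and AD pools lay within the range of GO for Hsp27 alone. The log2 fold change of Hsp27 was 0.99 ± 0.425 in GO against BO (higher on 4 of 4 arrays, adjusted p = 0.134, limma), 0.60 ± 0.425 in GO against AD (2 of 4 arrays, adjusted p = 0.409) and -0.39 ± 0.601 in BO against AD (adjusted p = 0.748).

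Hsp83, the fly form of the Hsp90 chaperone, is abundant in unstressed cells. Its log2 intensities ranged between 14.40 and 15.78 in the 8 GO channels, and were 15.46, 16.12, 16.00 and 15.35 in the BO pools and 15.34, 15.59, 15.28 and 15.53 in the AD pools. BO pools 2 and 3, the lowest for both small heat shock proteins, were here the highest. In GO against BO Hsp83 was below 0 on all 4 arrays, at -0.63 ± 0.233, without passing (adjusted p = 0.0891, limma), and it stood at -0.41 in GO against AD (adjusted p = 0.298) and 0.22 in BO against AD (adjusted p = 0.737). How each pool was handled before RNA was taken was not analysed here.

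**Figure D3:**
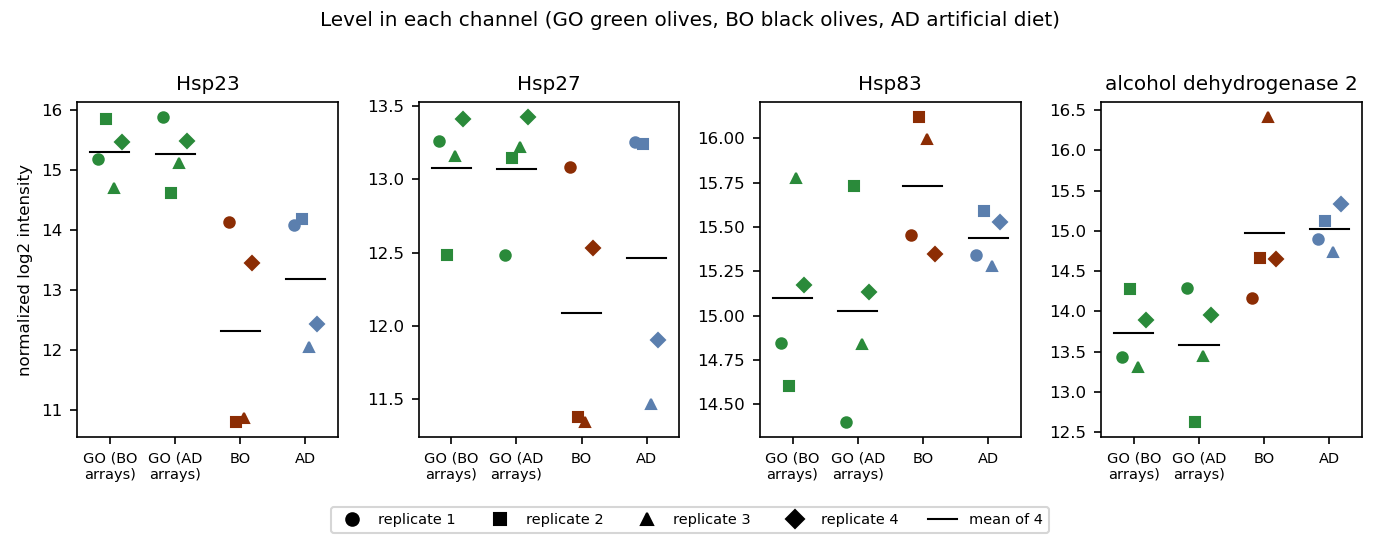
Normalized log2 intensity of Hsp23, Hsp27, Hsp83 and alcohol dehydrogenase 2 in each channel, for GO on the BO arrays, GO on the AD arrays, BO and AD; symbols are replicate numbers and bars the means of 4. For Hsp23 all 8 GO channels lie between 14.61 and 15.87, above every BO and AD pool, and BO replicates 2 and 3 lie lowest at 10.80 and 10.86.

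Among the enzymes and ubiquitin, 1 of 4 members rose in GO against AD and in GO against BO, and none passed in BO against AD. Of all contigs, 5.66% rose in GO against AD, 12.1% rose in GO against BO and 4.52% passed in BO against AD. Alcohol dehydrogenase 2, of the family of enzymes that oxidize alcohols, ranged between 12.63 and 14.29 in the 8 GO channels. It stood at 14.17, 14.67, 16.41 and 14.65 in the BO pools and at 14.91, 15.12, 14.73 and 15.34 in the AD pools. All 4 AD pools and 3 of the 4 BO pools were thus above every GO channel, and BO pool 3 was far above its fellows. The log2 ratio of GO over AD was -0.62, -2.49, -1.28 and -1.38, and the log2 fold change -1.44 ± 0.445, or 2.72-fold higher in AD, which missed the threshold (lower on 4 of 4 arrays, adjusted p = 0.0742, limma). Against BO the ratios were -0.73, -0.39, -3.10 and -0.76, and the log2 fold change was -1.24 ± 0.445 (lower on 4 of 4 arrays, adjusted p = 0.0810, limma). Without BO array 3 the difference from BO shrank to -0.63 (adjusted p = 0.207), while that from AD was unchanged at -1.44 and passed (adjusted p = 0.0214). BO and AD overlapped for this gene, at -0.20 in BO against AD with a 95% interval of -1.65 to 1.25.

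Glyceraldehyde 3-phosphate dehydrogenase 2, a glycolytic enzyme whose family is often used as a reference, was the member near background. At least 1 of its 8 probes was well above background in 6 of 8 GO channels, in 0 of 4 BO channels and in 2 of 4 AD channels, and in each of those 2 it was 1 probe of 8. The log2 ratios of GO over BO were 0.78, 0.36, 1.08 and 0.97, with GO at a mean of 6.98 on those arrays and BO at 6.19. The measured log2 fold change was 0.80 ± 0.139 (n = 4, adjusted p = 0.00558, limma). Since BO was not well above background on any array, that value does not fix the size of the difference. The mean of GO was 1.37-fold above the lowest signal well above background on each array, with 3 of 4 GO channels above it. This gives a rough bound only, since the flag is set spot by spot and BO may exceed that signal. The ratios of GO over AD were 0.15, 0.61, 0.61 and 0.90, with a measured log2 fold change of 0.56 ± 0.139 (n = 4, adjusted p = 0.0389, limma). Since nearly all AD signals of this gene were not well above background, the size of that difference is not measured, though the gene counts among the 4 that passed in GO against AD. The call against BO held in all 25 alternatives, and that against AD was lost in 10, among them without AD array 2, 3 or 4 or without BO array 1 or 4 (adjusted p up to 0.142). Whether this contig is the form of the enzyme that most larval cells use was not analysed here.

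Ubiquitin, the tag that marks proteins for breakdown, was below 0 on all 4 AD arrays and stood at -0.31 ± 0.098 in GO against AD (adjusted p = 0.0757, limma), at -0.23 in BO against AD (adjusted p = 0.365) and at -0.08 in GO against BO (adjusted p = 0.588). Succinate dehydrogenase, of the citric acid cycle and the respiratory chain, passed in no comparison. Its 95% intervals were -0.06 to 0.29 in GO against AD, -0.26 to 0.25 in BO against AD and -0.06 to 0.30 in GO against BO.

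Of the 3 members for the extracellular matrix and adhesion, 2 fell in GO against BO and none passed in either comparison with AD. Of all contigs, 10.8% fell in GO against BO, and 11.0% passed in GO against AD and 4.52% in BO against AD. Collagen, named as the alpha-2 chain, had log2 ratios of -0.33, -0.91, -0.57 and -0.32 on the BO arrays, all below 0, and -0.52, -0.02, 0.01 and -0.06 on the AD arrays, where array 1 stood alone. The log2 fold change was -0.53 ± 0.118 in GO against BO (n = 4, adjusted p = 0.0146, limma), -0.15 in GO against AD (adjusted p = 0.475) and 0.39 in BO against AD (adjusted p = 0.213). The call in GO against BO was lost in 2 of 26 alternatives (adjusted p up to 0.0682, limma), among them without BO array 3 (-0.52, adjusted p = 0.0543). Its repeated probes (level 13.45) gave -0.62 in GO against BO and its single-spot probes (level 7.02) -0.42. In GO on the 4 BO arrays, 2, 0, 3 and 1 of those 3 single-spot probes were well above background, so their value is no independent measure of its size. A separate name on the array for the reverse strand of this contig gave -0.52 (adjusted p = 0.0504, limma) at a level of 14.19. Which strand each kind of collagen probe read was not tested, so the average may mix strands.

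DE-cadherin, which joins epithelial cells to each other, had log2 ratios of -0.08, -0.41, -0.27 and -0.40 on the BO arrays. It was lower in GO on each of them, with a log2 fold change of -0.29 ± 0.064 (n = 4, adjusted p = 0.0145, limma). The call was lost in 5 of 26 alternatives (adjusted p up to 0.104, limma), among them without BO array 2 (adjusted p = 0.0575) or 4 (adjusted p = 0.0574). Integrin beta-PS, a receptor by which cells hold on to the matrix, passed nowhere, at -0.16 in GO against AD, -0.26 in BO against AD and 0.09 in GO against BO. The member with no description in the designers' list, contig00566, passed nowhere either, at -0.17, -0.07 and -0.10 in the same 3 comparisons.

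The repeated spots measured the spread within a hybridization, which holds no variation from labelling or from hybridizing again. It is of single spots, whereas the spread between arrays is of averages over all spots of a contig, so the sizes are not on 1 scale. The SD of the log2 ratio over the 15 spots of a repeated probe on an array, taken per member, had a median of 0.0607 and ranged between 0.0452 and 0.170. The SD between the 4 repeated probes of a member had a median of 0.0465, and the SD between the 4 arrays of a set had a median of 0.148 and ranged between 0.0180 for RpS26 and 1.55 for Hsp23. Over all contigs the median SD between arrays was 0.155, close to that of the members, but at a median level of 7.57 beside 14.33. The members' values also average more spots than those of contigs without repeated probes. Contigs of like level or like number of spots were not compared.

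The 10 cytosolic ribosomal proteins had SDs between arrays of 0.0180 to 0.109. At the other end were Hsp23 (1.55), alcohol dehydrogenase 2 (1.04), Hsp27 (0.991) and Hsp83 (0.539), at percentiles 99.3, 98.5, 98.3 and 94.8 among all contigs, while the SD over their repeated spots lay between 0.0604 and 0.0783. The arrays were not equal: the median SD over spots was 0.105 on AD array 1 and lay between 0.0388 and 0.0628 on the other 7, and AD array 1 also had the most outlier spots of members (114, against 33 to 86 elsewhere). The part of this array in the results above was not tested beyond leaving it out.

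**Figure D4:**
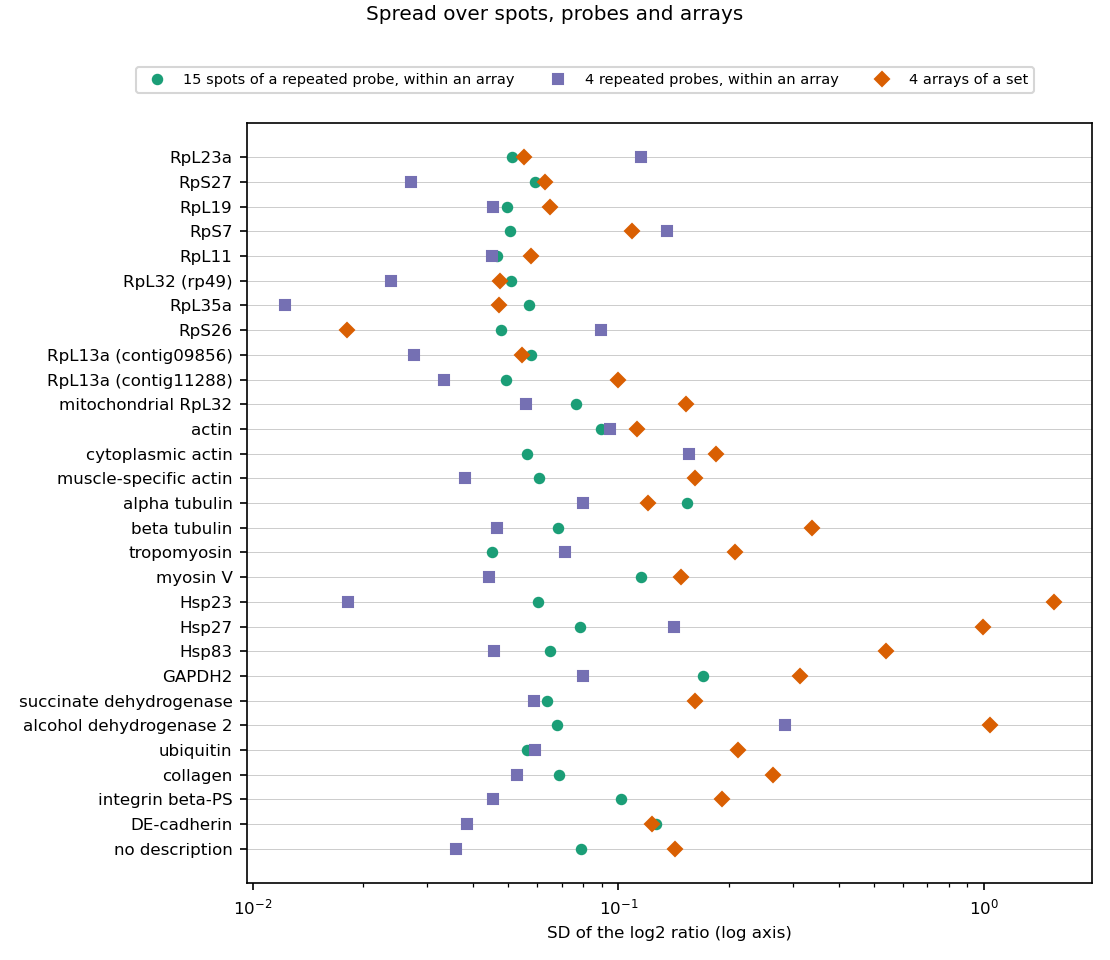
SD of the log2 ratio for each of the 29 members, on a log axis, over the 15 spots of a repeated probe within an array (circles), over the 4 repeated probes within an array (squares) and, for the contig's average, over the 4 arrays of a set (diamonds). The diamonds span 0.0180 to 1.55, while the circles stay between 0.0452 and 0.170.

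In the 28 members with both kinds of probe, the repeated and the single-spot probes carried the same contig name. Which stretch and strand of the contig each probe read was not tested. Their log2 fold changes lay within 0.25 of each other for 26 members in GO against AD, 27 in BO against AD and 25 in GO against BO, with median absolute differences of 0.0621, 0.0322 and 0.0757. The exceptions were RpS27 and cytoplasmic actin in both comparisons with GO, and the muscle-specific actin in GO against BO and in BO against AD.

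**Figure D5:**
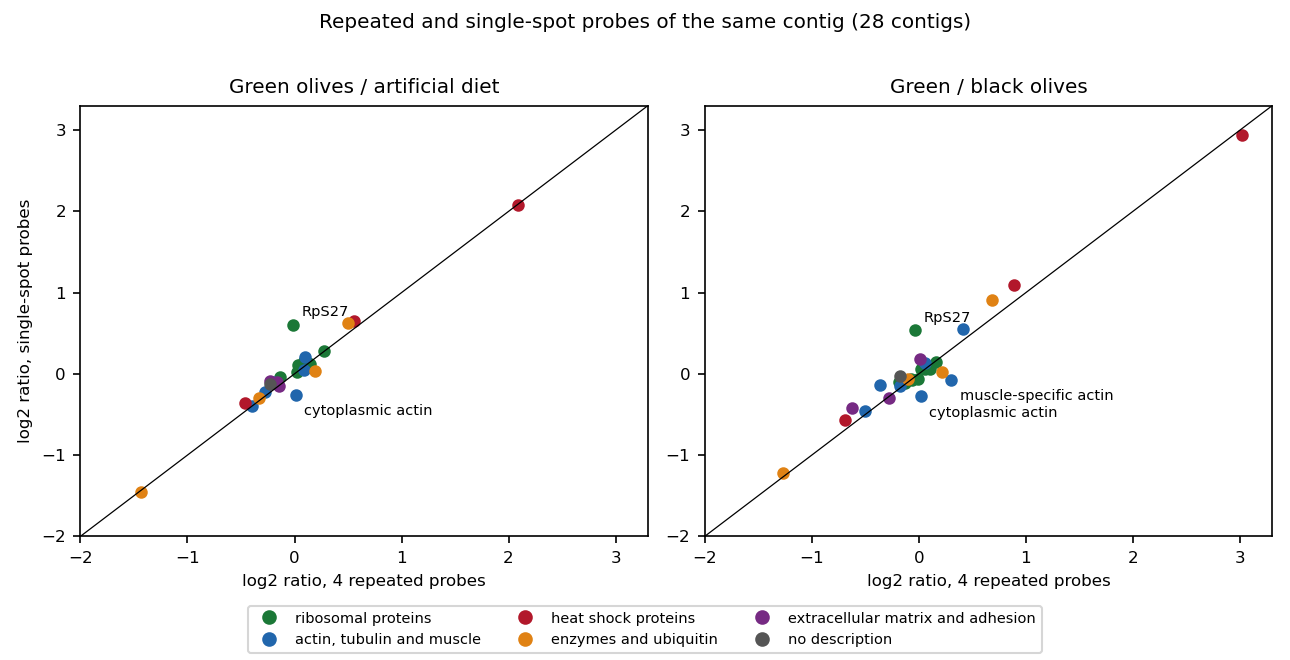
Mean log2 ratio of the single-spot probes against that of the 4 repeated probes of the same contig, for 28 members, in GO against AD and GO against BO, coloured by role; the line marks equal values. Hsp23 and alcohol dehydrogenase 2 lie on the line at the ends, and the members more than 0.25 apart are named, with RpS27 the farthest from it (0.62 in GO against AD).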

How the data were processed

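Scanner output of 8 two-colour Agilent arrays was used. The authors deposited intensity values (median foreground and background per spot, processed signals) and log10 ratios of Cy5 over Cy3, extracted with Agilent Feature Extraction (10.5 in the submitters' processing notes, 10.7.3.1 in the file headers); a deposited value table of log ratios served as an alternative. Log2 ratios were computed from the median intensities with the steps that the study's methods name: normexp background correction (offset 50), loess within arrays and Aquantile between arrays. Removal of 1319 control spots per array and a weight of 0 for outlier spots in the loess were choices made here. Spots were averaged per probe and probes per contig. limma 3.58.1 (R 4.3.3) was fitted over 20516 contigs and 8 arrays, with 1 coefficient per set of 4 arrays and their difference for BO against AD. Adjusted p under 0.05, with or without an absolute log2 fold change over 1, was the call. Residual degrees of freedom were 6 and prior degrees of freedom 2.21, and only 4 arrays per set limit the precision. The 8 GO channels were treated as independent.

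A spot counted as well above background by the scanner's own flag. Members were described by role; full statistics were given for those past the threshold and for the 3 with the greatest absolute log2 fold change in a comparison. The members, roles and lists were chosen with earlier results of these data known, so no test of the list was made. Contig names are the designers' descriptions; other contigs of these pathways were not analysed here. The fit was tested on simulated data of 20512 contigs, where 72.1%, 41.7% and 74.4% of log2 changes of 0.7 were recovered in GO against AD, BO against AD and GO against BO. Replicate numbers are shared between the sets but did not pair the arrays, so no block was used. Alternatives covered background correction, scaling, probe averaging, spot and contig filters, array subsets and single arrays left out.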

Additional observations from a re-analysis of the deposited data

Results flagged for a closer look

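In 4 of 58 sets of 4 arrays, 1 array lay far from the other 3 by Dixon's test, where chance gives about 1 in 20 sets, or 2.9 of 58. On AD array 1, RpS7 (contig05987) had a log2 ratio of GO over AD of -0.075, while the other 3 arrays lay between 0.13 and 0.17. On the same array collagen (contig00186) stood at -0.52, against -0.06 to 0.01 on the others; this array also had the widest spread over repeated spots. On BO array 3, alcohol dehydrogenase 2 (contig03652) had a log2 ratio of GO over BO of -3.10, against -0.76 to -0.39 on the others, and contig00566, which has no description, stood at 0.14, against -0.19 to -0.17.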

How the results depend on the processing

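Counts of members give those with an adjusted p under 0.05, and "called" those also beyond 1 on the log2 scale. Except for the Cy3 levels alone, shares of all contigs under the alternatives are not given. Whether a change in count is particular to the members was not tested. On the scanner's processed signals, 2, 0 and 5 members passed in GO against AD, BO against AD and GO against BO, 1 was called in GO against AD and 2 in GO against BO, and the medians were -0.074, -0.10 and -0.023. With median centring in place of loess, 12 passed and 1 was called in GO against AD, 0 passed in BO against AD, and the medians were 0.23, 0.14 and 0.10. The split of higher and lower members moved with the scaling: 3 to 1 in GO against AD and 5 to 5 in GO against BO as reported, 1 to 1 and 3 to 2 on the processed signals, 11 to 1 and 8 to 2 with median centring, 3 to 1 and 6 to 3 with arrays centred on the members, and 2 to 1 and 4 to 7 in the value table. Called members in GO against BO were 2 with a normexp offset of 16, with no background correction and in the value table, where the median in GO against AD was 0.012. The medians were 0.032, -0.047 and -0.022 with arrays centred on the members, 0.077 in BO against AD with the members left out of the loess, 0.017 in GO against AD with the median of probes, and -0.030 in GO against BO with the first spot of each probe. With only the 4 arrays of GO against BO, 3 passed and 0 were called. When the arrays' row on the slide was a term of the model, 0 passed in BO against AD.

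The replicate number does not pair the arrays: the deviations of same-numbered arrays correlated above 0.1 for 1 of 4 numbers, and 1 of 4 arrays was most like its own number. With a replicate block, 0, 0 and 3 members passed in the 3 comparisons and 0 were called in GO against BO.

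Leaving out 1 array at a time gave 2 to 5 members and 0 to 1 called in GO against AD, 0 to 1 members in BO against AD, and 5 to 10 members and 0 to 1 called in GO against BO, with medians of 0.04 to 0.07, 0.03 to 0.06 and -0.08 to -0.04. The 1 called in GO against AD was found without BO array 2 or 3, and 0 were called in GO against BO without BO array 3.

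Further alternatives were chosen after seeing the data. With the repeated probes only, the medians were 0.022 in GO against AD and -0.035 in GO against BO; with the single-spot probes only, the median was 0.030 in GO against AD, 0 passed in BO against AD and 6 in GO against BO. From the Cy3 levels alone, 4 passed in BO against AD, beside 13.7% of all contigs: mitochondrial L32 at 0.73, collagen at 0.43, RpL19 at 0.24 and contig09856 of RpL13a at 0.22. Of 568 values of single members and alternatives, 481 kept direction and side of the threshold, 79 lost it and 3 gained it. The 5 that changed sign were RpL35a in GO against BO with median centring (0.068), RpS27 in GO against BO with the median of probes (-0.017), RpS27 with the repeated probes only (-0.013 in GO against AD and -0.035 in GO against BO), and Hsp27 in BO against AD without AD array 1 (0.068, in a range of -0.77 to 0.068 over single arrays left out). The cause was not tested. Hsp23 in GO against BO kept its direction in all 26 alternatives, at 2.30 to 3.63 with adjusted p of 0.00723 to 0.0618 (limma), and lost the threshold in 3. The pooled SD over spots, 0.0793 as reported, was 0.0883 to 0.0897 under its alternatives.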
